A study of Mus musculus with 18 samples.

Results

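Rag1 and Rag2, the neighbouring recombinase genes of mouse chromosome 2, were examined for cohesin and CTCF binding by taking every peak that overlapped the stretch from 200 kb below to 200 kb above their gene bodies. In the mm10 build this stretch runs from chr2:101424712 to 101849532 (424.8 kb). It held 93 peaks in the 7 peak lists analysed, which merged into 29 sites of the 67173 sites in all lists. Binding was mapped by CUT&RUN, an assay that tethers a nuclease to an antibody on chromatin and sequences the fragments it releases. Libraries came from sorted DP thymocytes of tamoxifen-treated mice that were either Satb1 knockout (KO, tamoxifen-induced) or WT, so the controls had received tamoxifen too. Neither the Cre driver, nor the age of the mice, nor whether animals were pooled is stated in the sources used. Peak lists carry no RNA level, so DP identity and the deletion of Satb1 were not checked here. SMC1A, a core subunit of the cohesin ring, had 2 KO lists and 2 WT lists. CTCF, the zinc finger protein at which cohesin often stops, had 2 KO lists and 1 WT list.

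RAG1 and RAG2 form the endonuclease that cuts at recombination signals to assemble T cell and B cell receptor genes. DP thymocytes, the CD4+ CD8+ stage, express both genes while they rearrange the T cell receptor alpha chain. RAG1 holds the catalytic core, and RAG2 is its partner, with a domain that reads methylated histone H3. In mouse DP thymocytes the expression of both genes is known to depend on an antisilencer element far 5′ of Rag2 and on SATB1, a chromatin organiser that binds there. The element's coordinates are in none of the sources used here, so no site below is assigned to it. The question posed by the design was where cohesin and CTCF sit around these genes in KO cells and in WT cells.

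Rag2 lies on the plus strand at chr2:101624712-101632528 and Rag1 on the minus strand at chr2:101638252-101649532, so the genes converge. Their starts are 24.8 kb apart and their ends 5.7 kb apart. Iftap, also known as NWC, runs on the minus strand at chr2:101560779-101629031 and overlaps the start of Rag2. Beyond Rag1, on its 5′ side, lie the long noncoding RNA gene Gm34041, then Traf6, the ubiquitin ligase of Toll-like and interleukin receptor signalling, and Prr5l, whose product binds mTOR complex 2. The long noncoding RNA genes Gm39886 and Gm39887 lie on the 5′ side of Rag2.

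The 250 bases before each start are shown for Rag1 and Rag2, the genes in question, and for Traf6, the nearest other protein-coding gene on the Rag1 side, because peaks covered the first and the last but not the second. The Rag1 stretch is chr2:101649533-101649782 on the minus strand, that of Rag2 is chr2:101624462-101624711 on the plus strand, and that of Traf6 is chr2:101678170-101678419 on the plus strand. The sequences are RefSeq's for GRCm38.p6, the assembly behind mm10, written 5′ to 3′ with the last base next to the start. Capitals mark matches, on either strand, to 5 letter patterns: the E-boxes CAGGTG and CAGCTG of E proteins, TGTGGT of RUNX factors, and AGGGGGC and AGGTGGC from the core of the CTCF motif.
Rag1: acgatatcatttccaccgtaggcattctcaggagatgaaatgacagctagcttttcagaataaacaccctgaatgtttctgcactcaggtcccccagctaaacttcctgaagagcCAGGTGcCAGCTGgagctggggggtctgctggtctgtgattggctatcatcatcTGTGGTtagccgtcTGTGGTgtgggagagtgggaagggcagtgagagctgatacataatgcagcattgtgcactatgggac
Rag2: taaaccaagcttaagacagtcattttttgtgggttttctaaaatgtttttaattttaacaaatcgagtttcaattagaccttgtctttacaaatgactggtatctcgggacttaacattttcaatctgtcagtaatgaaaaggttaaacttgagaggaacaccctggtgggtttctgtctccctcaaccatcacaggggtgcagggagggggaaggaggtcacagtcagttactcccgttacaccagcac
Traf6: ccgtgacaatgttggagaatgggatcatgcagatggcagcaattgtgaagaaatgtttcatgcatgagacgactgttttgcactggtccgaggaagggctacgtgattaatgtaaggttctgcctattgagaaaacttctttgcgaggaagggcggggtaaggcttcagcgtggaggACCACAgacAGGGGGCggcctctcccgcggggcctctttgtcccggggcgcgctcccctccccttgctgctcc
The Rag1 stretch held both E-boxes, CAGGTG at bases 135 to 130 and CAGCTG at bases 128 to 123 before the start, and TGTGGT at bases 81 to 76 and again at 67 to 62. It held neither CTCF pattern. The Rag2 stretch held none of the 5 patterns. The Traf6 stretch held AGGGGGC at bases 64 to 58 and the RUNX pattern on the other strand, read as ACCACA, at bases 73 to 68. No matches overlapped each other. Over 32851 RefSeq promoter stretches of the same length, 17.2% held CAGGTG, 13.0% CAGCTG, 14.0% TGTGGT, 9.43% AGGGGGC and 5.08% AGGTGGC. A match is a description of the letters, not of a bound site.

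Cohesin at the Rag genes was found only at sites with a CTCF peak in some list, and not at all such sites. All 29 sites had a CTCF peak in at least 1 list, 14 of them also had SMC1A, and 0 had SMC1A without CTCF. Over the whole series, 89.8% of SMC1A regions overlapped a CTCF peak of some list, so cohesin at CTCF is common in these data. Only 3 sites were in all 7 lists, at 151.6 kb and 72.6 kb on the 5′ side of Rag2 and 3.2 kb upstream of Rag1. The Rag1 promoter and a site 16.0 kb upstream of Rag1 were in 6 lists. Another 13 sites were in 1 list each, 11 of them in KO CTCF replicate 1, the longest list. The matching shares over all sites of the series were not counted.

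**Figure D1:**
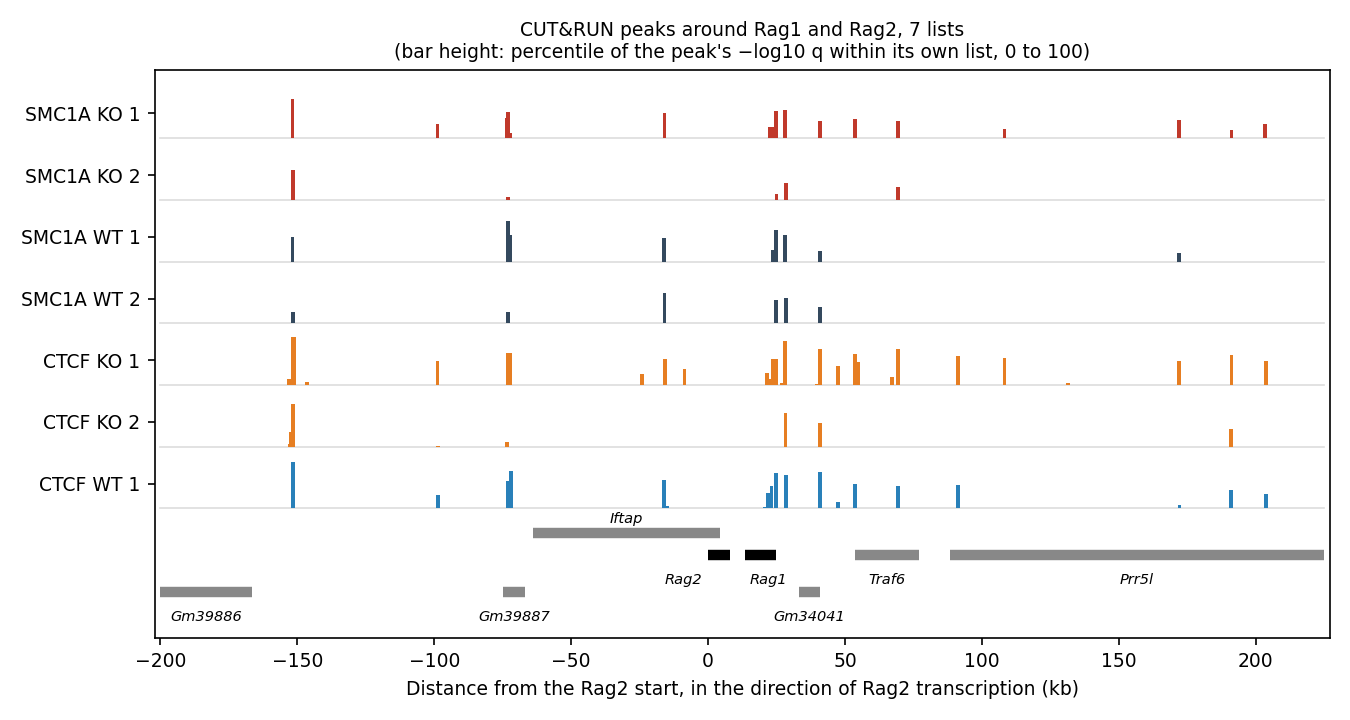
Peaks of each list along the stretch, with distance from the Rag2 start in kb on the horizontal axis and KO lists above WT lists within each protein. The height of a bar is the percentile of the peak's −log10 q within its own list, and gene bodies are drawn at the bottom. SMC1A peaks recur at the same few places in the lists of both genotypes, and no peak lies on the body of Rag2.

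The lists differ in length and depth, which bears on every presence or absence given here. In KO mice the SMC1A lists held 28151 and 20689 peaks and in WT mice 19882 and 20638 peaks. The CTCF lists held 55750 and 22928 peaks in KO mice and 38989 peaks in the WT list. Read numbers are not in these lists. The peak caller's own statistics give the pile-up of reads at each summit, which came out whole, within 0.001 of the deposited −log10 p, for all 93 peaks. The lowest pile-up called in the stretch was 7 and 7 reads in the KO SMC1A lists and 8 and 9 reads in the WT ones. The median SMC1A pile-up in the stretch was 11 and 8 reads in KO and 12 and 11 reads in WT. Over up to 2000 peaks drawn from each SMC1A list it was 13 and 11 reads in KO and 12 and 11 reads in WT. Peaks with few reads are thus usual in the SMC1A lists. For CTCF the lowest pile-up in the stretch was 9 and 13 reads in the KO lists and 7 reads in the WT list. The lowest local backgrounds (first percentile of each list) were 1.82 and 3.28 reads in the KO CTCF lists and 1.02 reads in the WT list, so KO replicate 2 had the highest background and the fewest CTCF peaks. The part that depth and background play in the absences was not tested.

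Peaks at these genes were of middling strength. Strength is the deposited −log10 q, which was used only within a list, and the percentile gives the share of the list with a lower value. The median percentile of the peaks was 34.9 and 25.4 in the KO SMC1A lists and 49.7 and 40.4 in the WT ones. It was 47.5 and 32.2 in the KO CTCF lists and 45.4 in the WT CTCF list. In all 7 lists, fewer peaks of the stretch lay above their list's median than below it, such as 5 of 17 in KO SMC1A replicate 1 and 4 of 9 in WT SMC1A replicate 1.

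The strongest CTCF site of the stretch in all 3 CTCF lists lay far 5′ of Rag2, at chr2:101472131-101474143 (151.6 kb from its start), between genes. Its CTCF −log10 q was 179 and 19.8 in KO and 43.9 in WT, at the 97.3 and 87.1 percentiles of the KO lists and the 92.9 percentile of the WT list. Its CTCF pile-ups were 189 and 48 reads in KO and 56 reads in WT. SMC1A had a −log10 q of 19.9 and 8.90 there in KO and of 7.95 and 4.19 in WT. The pile-ups were 32 and 15 reads in KO, with exact 95% counting intervals of 21.9 to 45.2 and 8.40 to 24.7, and 16 and 11 reads in WT, with intervals of 9.15 to 26.0 and 5.49 to 19.7. Within the stretch this was the strongest SMC1A peak of both KO lists and of neither WT list. The 4 SMC1A summits lay within 65 bp of each other and the 3 strongest CTCF summits within 34 bp.

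Between 20 and 100 kb on the 5′ side of Rag2, the side on which the antisilencer lies, 3 sites were found. The main one lay 72.6 kb from the start of Rag2, at chr2:101551027-101553245, in the body of Gm39887. It was in all 7 lists. SMC1A had a highest −log10 q of 8.67 and 2.45 there in KO and of 19.6 and 4.19 in WT, with pile-ups of 13 and 8 reads in KO and of 27 and 11 reads in WT. It held the strongest SMC1A peak of the stretch in WT replicate 1, and the weakest of the 5 SMC1A peaks in KO replicate 2. In WT replicate 2 it tied with the far 5′ site as the weakest of 6 peaks. In KO replicate 1 its peaks ranked 4, 6 and 17 of 17.

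The site was broad and had more than 1 summit. SMC1A peaks numbered 3 and 1 in the KO lists and 2 and 1 in the WT lists, and KO CTCF replicate 1 had a single CTCF peak of 2219 bp over the whole site. CTCF had a highest −log10 q of 21.6 and 2.68 in KO and of 18.7 in WT. The strongest CTCF summits of the 3 lists were spread over 1273 bp, against 121 bp for the strongest SMC1A summits of the 4 lists. The other sites of this side were weaker. At 98.8 kb, a CTCF site of all 3 lists had a −log10 q of 9.87 and 1.62 in KO and 4.20 in WT, with SMC1A in KO replicate 1 alone (−log10 q 4.93, pile-up 9 reads). At 24.1 kb, in Iftap, KO CTCF replicate 1 alone had a peak (−log10 q 4.32).

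Nearer to Rag2, a site in Iftap lay 15.6 kb from the Rag2 start, at chr2:101608478-101609694. SMC1A had a −log10 q of 8.43 in KO replicate 1, no peak in KO replicate 2, and 7.78 and 9.68 in WT. The pile-up was 11 reads in KO replicate 1 and 10 and 11 reads in WT. This was the strongest SMC1A peak of the stretch in WT replicate 2. CTCF likewise had no peak in KO replicate 2, with a −log10 q of 12.6 in KO replicate 1 and 9.64 in WT. Its 3 SMC1A summits lay within 38 bp of each other, and each was within 20 bp of a CTCF summit. Closer still, at 8.7 kb and 4.3 kb, CTCF peaks were in KO replicate 1 alone, with a −log10 q of 5.70 and 1.34, and the nearer of them is the site nearest to the Rag2 start.

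Rag2 itself had no peak. A stretch of 24.7 kb around it, chr2:101620562-101645298, was empty in all 7 lists and holds the Rag2 promoter and body, the interval between the genes and the 3′ end of Rag1. For SMC1A the empty stretch was 38.2 kb (chr2:101609020-101647210). Peaks covered the 300 bases around a promoter, from 250 before to 50 after the start, in 27.1% and 22.9% of 32851 RefSeq promoters in the KO SMC1A lists and 24.2% and 24.1% in the WT SMC1A lists, so a promoter with no peak is common in these data.

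The Rag1 promoter, at chr2:101649281-101649943, was bound in 6 of the 7 lists. SMC1A had a −log10 q of 9.24 and 3.08 in KO and of 11.3 and 6.98 in WT. The pile-ups were 15 and 7 reads in KO, with exact 95% counting intervals of 8.40 to 24.7 and 2.81 to 14.4, and 16 and 12 reads in WT, with intervals of 9.15 to 26.0 and 6.20 to 21.0. These read numbers are not scaled for depth, so they give the counting error of each peak and no comparison of the genotypes. All 4 SMC1A summits fell in the printed Rag1 sequence, at 25 and 62 bp before the start in KO and at 30 and 127 bp before it in WT. The KO replicate 2 summit was on the TGTGGT match at bases 67 to 62. The WT replicate 2 summit was on the CAGCTG match at bases 128 to 123. The SMC1A summits of replicate 1 in KO and in WT were on no match. CTCF had a −log10 q of 11.9 in KO replicate 1, no peak in KO replicate 2 and 15.3 in WT, with summits 75 bp (KO) and 35 bp (WT) before the start and pile-ups of 26 and 24 reads. Of all RefSeq promoters, 18.9% had peaks in all 4 SMC1A lists and 20.6% in 6 or more of the 7 lists.

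**Figure D2:**
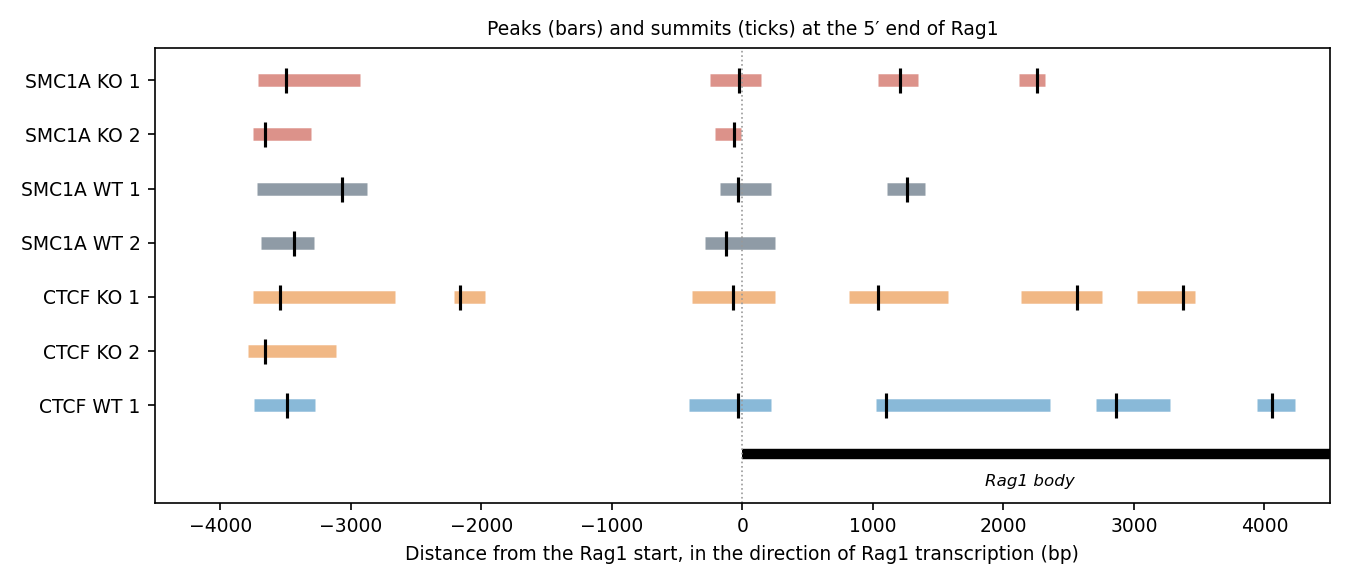
Peak extents (bars) and summits (ticks) within 4.5 kb of the Rag1 start, with distance in bp along the direction of Rag1 transcription and KO lists above WT lists within each protein. SMC1A peaks line up at the start and 3.2 kb upstream in all 4 lists, while peaks inside the gene body vary between lists.

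Within Rag1, behind its promoter, a broad group of peaks covered chr2:101646066-101648715, with its middle 2.1 kb into the gene. SMC1A had a −log10 q of 4.23 in KO replicate 1, in which 2 peaks had that same value, no peak in KO replicate 2, 4.65 in WT replicate 1 and no peak in WT replicate 2. Each of these SMC1A pile-ups was 8 reads. CTCF had a highest −log10 q of 12.2 in KO replicate 1, no peak in KO replicate 2 and 6.52 in WT. Deeper in the gene, at chr2:101645299-101645586, the WT CTCF list alone had a peak, with a −log10 q of 2.04 and a pile-up of 7 reads, the lowest of that list in the stretch.

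A site 3.2 kb upstream of Rag1, at chr2:101652194-101653321 and outside any annotated gene, was in all 7 lists. Among the peaks of the stretch it ranked 2 in both KO SMC1A lists, against 4 and 2 in the WT ones, and 2 in both KO CTCF lists, against 5 in the WT list. SMC1A had a −log10 q of 9.90 and 5.03 in KO and of 8.63 and 7.79 in WT, with pile-ups of 14 and 8 reads in KO and of 12 and 11 reads in WT. CTCF had a −log10 q of 73.3 and 10.5 in KO and of 13.6 in WT, with pile-ups of 73 and 29 reads in KO and 20 reads in WT. The SMC1A summits were spread over 592 bp, against 102 bp at the Rag1 promoter, and the CTCF summits over 168 bp. Its middle lay 179.6 kb from that of the far 5′ site, and the 2 highest CTCF peaks of each KO list were at these sites, on either side of the Rag genes. In the WT CTCF list the 2 highest were both 5′ of Rag2, at 151.6 kb and 72.6 kb.

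The next site, 16.0 kb upstream of Rag1 at chr2:101665148-101665822, lay at the start of Gm34041, a minus-strand noncoding gene. SMC1A had a −log10 q of 5.68 in KO replicate 1, no peak in KO replicate 2, and 4.43 and 5.34 in WT. CTCF was in all 3 lists, with a −log10 q of 31.9 and 6.57 in KO and 17.4 in WT. The SMC1A pile-up was 12 reads in KO replicate 1 and 10 and 9 reads in WT. KO replicate 2 lacked SMC1A here while having CTCF with a pile-up of 29 reads.

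In Traf6 lay the only SMC1A region of the stretch present in both KO lists and absent from both WT lists. It was at chr2:101693767-101694212, in the gene body and 44.5 kb upstream of Rag1. Its SMC1A −log10 q was 5.68 and 4.33 in KO, with pile-ups of 12 and 9 reads and summits 6 bp apart. CTCF had a −log10 q of 31.1 in KO replicate 1, no peak in KO replicate 2 and 6.56 in WT, so CTCF was listed there in WT cells too. With a −log10 q of at least 5 asked of each peak, the KO replicate 2 peak falls out and 0 gained regions are left.

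At the Traf6 promoter, chr2:101678070-101678584, SMC1A was in KO replicate 1 alone (−log10 q 6.36). CTCF had a −log10 q of 18.5 in KO replicate 1, no peak in KO replicate 2 and 7.25 in WT. The SMC1A summit lay 64 bp before the Traf6 start and the CTCF summits 70 bp (KO) and 13 bp (WT) before it. In the printed sequence the SMC1A summit fell on the AGGGGGC match and the KO CTCF summit on the ACCACA match. The WT CTCF summit fell on no match. At the Rag1 promoter, SMC1A summits fell on E-box and RUNX letters, so a summit on a match was not particular to the CTCF pattern. In Prr5l, on the outer Rag1 side, SMC1A was in KO replicate 1 at 4 sites, with a −log10 q between 3.85 and 5.77, and in WT replicate 1 at 1 of them (4.14). KO replicate 2 and WT replicate 2 had no SMC1A peak in Prr5l. Of these sites, 191.1 kb beyond the Rag2 start, 1 had CTCF in all 3 lists, with a −log10 q of 18.0 and 5.01 in KO and 5.37 in WT.

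**Figure D3:**
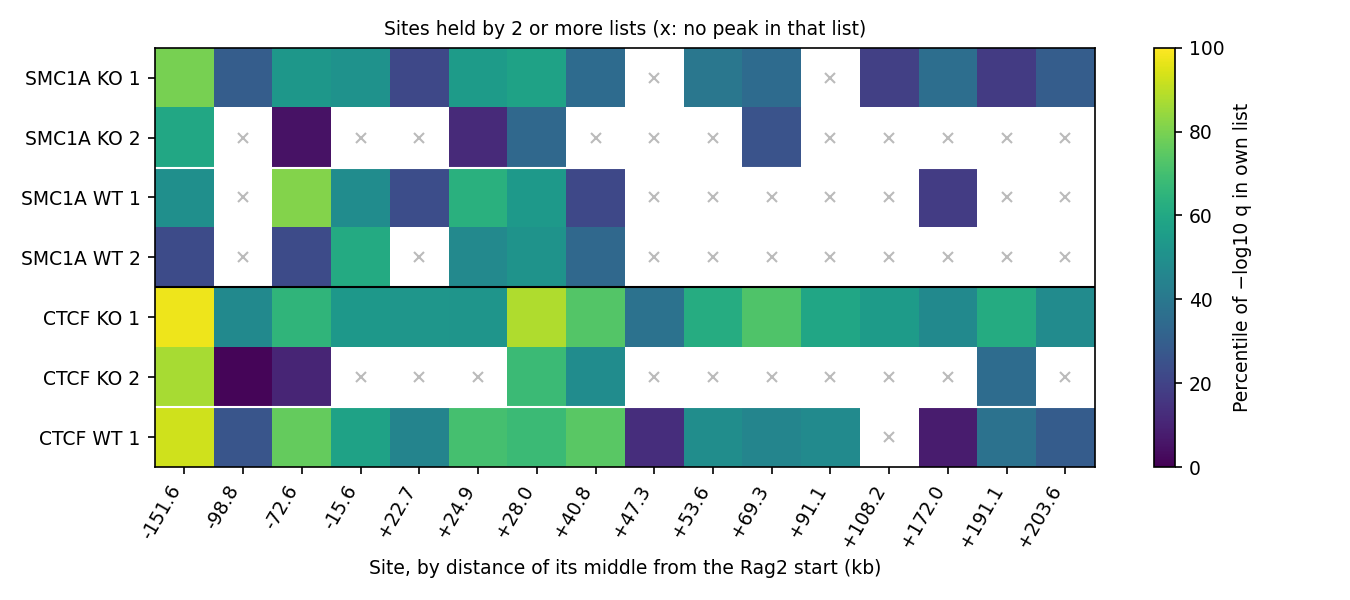
The 16 sites held by at least 2 lists, in order along the chromosome, with KO lists above WT lists within each protein (SMC1A above the black line, CTCF below). Colour gives the highest percentile of −log10 q within the list's own peaks, and x marks no peak. SMC1A is filled in all 4 rows at 4 sites, and most blanks fall in KO replicate 2 of each protein and, beyond the site 40.8 kb from the Rag2 start, in the WT SMC1A rows.

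The number of SMC1A peaks at the Rag genes did not separate KO from WT. The lists held 17 and 5 peaks in KO and 9 and 6 in WT. Per 1000 peaks of each list this was 0.604 (exact 95% counting interval 0.352 to 0.967) and 0.242 (0.0785 to 0.564) in KO, against 0.453 (0.207 to 0.859) and 0.291 (0.107 to 0.633) in WT. Both WT values lay between the KO values. The mean was 0.423 ± 0.256 in KO and 0.372 ± 0.115 in WT (SD, n = 2 each), a difference of 0.0511 with p = 1.0 in an exact two-sided permutation test, whose smallest possible p is 0.33. Batch 1 gave a difference of 0.151 and batch 2 of -0.0491, and without KO replicate 1 it was -0.130.

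**Figure D4:**
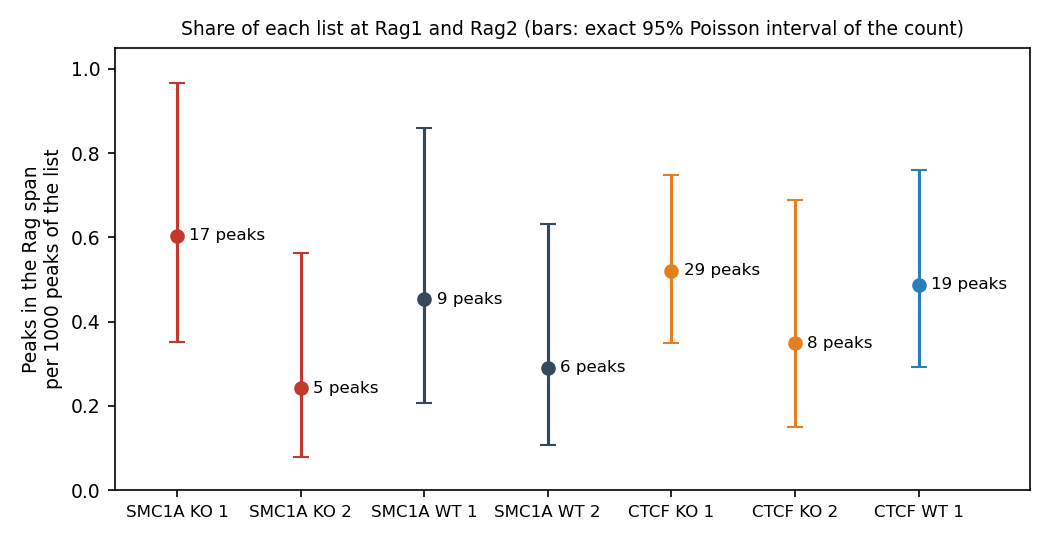
Peaks of the stretch per 1000 peaks of each list, with KO lists left of WT lists within each protein. Points are single lists, and bars are exact 95% Poisson intervals that cover counting error only. For SMC1A the WT points (0.453 and 0.291) fall between the KO points (0.604 and 0.242).

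Density over the 1 Mb window that holds both genes (chr2:101000001-102000000) did not separate the genotypes either. The window held 18 and 7 SMC1A peaks in KO and 11 and 8 in WT, where the median window held 18 and 13 peaks in KO and 12 and 12 in WT. On the scale log2((peaks + 0.5) per 1000000 peaks of the list), the KO minus WT difference was 1.8e-05 with a standard error of 0.23 (limma, Benjamini-Hochberg adjusted p = 1.0), while 5.88% of the 1275 windows tested passed an adjusted p of 0.05. That share moved with the settings. It was 0 of 1182 windows with lists of equal length and 4 of 1275 with library medians set to 0. It was 18 of 1024 with −log10 q of 5 or more and 72 of 1275 with a pseudocount of 2. The KO minus WT difference of the Rag window was -0.43 without KO replicate 1 and 0.43 without KO replicate 2. The standard error of 0.23 comes from the trend over all windows, not from the spread between libraries in the Rag window.

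Presence was then compared region by region, with too few regions to set the stretch apart from the rest. Of the 6 SMC1A regions held by both WT lists, 0 were absent from both KO lists, where 4.15% were over all regions. From KO replicate 1, 0 of 6 were absent (5.84% over all regions), and from KO replicate 2, 2 of 6 (15.3% over all regions): those in Iftap and at Gm34041, each with a WT pile-up of 9 to 11 reads. Of the 5 regions held by both KO lists, 1 was absent from both WT lists, that in Traf6, where 13.1% were over all regions. The 16 SMC1A regions here leaned on 1 library. All 16 were in KO replicate 1, and 6 of them (37.5%) in that list alone, against 18.2% of all 35221 SMC1A regions. These 6 had pile-ups of 7 to 11 reads. All 4 lists shared 4 regions (25%, against 35.0% over all regions).

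For CTCF, with 1 WT list analysed here, regions were counted and no test was run. Of the 16 WT regions, 1 was absent from both KO lists, the weak one inside Rag1, where 18.9% were over all CTCF regions of WT. From KO replicate 1, 1 of 16 was absent (19.5% over all regions), and from KO replicate 2, 10 of 16 (51.7%). Of the 6 regions held by both KO lists, 0 were absent from WT, where 8.29% were over all regions. Of 29 CTCF regions, 6 were in all 3 lists (20.7%, against 27.0% over all), 9 in KO replicate 1 and WT (31.0%, against 18.6%) and 12 in KO replicate 1 alone (41.4%, against 38.0%).

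The overlap of SMC1A with CTCF was counted beside that of the whole series, with no test. All 16 SMC1A regions overlapped a CTCF peak of some list, beside 89.8% of all SMC1A regions. With the KO lists taken singly, 16 (replicate 1) and 6 (replicate 2) overlapped, against 87.7% and 49.1% of all, and with the WT list 15, against 70.1% of all. Of the 37 SMC1A peaks, 35 had their summit within 200 bp of a CTCF summit of any list, and the median distance of the 37 was 33 bp. These distances were not measured over all SMC1A peaks, so they do not set the stretch apart. In the other direction, 14 of the 29 CTCF regions overlapped SMC1A, beside 45.6% of all CTCF regions.

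The other genes of V(D)J recombination, which bind, cut, process and join the DNA ends, were counted in the same way. Of 19 such genes, 18 had an SMC1A region within 20 kb of their body, 77 regions in all. The share over all genes was not counted, so this number does not set these genes apart. Of 45 regions held by both WT lists, 2 (4.44%) were absent from both KO lists. They lay at Xrcc6, which encodes the Ku70 end-binding protein (−log10 q 3.57 and 2.18 in WT), and at Rnf8, a ubiquitin ligase of the break response (5.36 and 4.02 in WT). Of 44 held by both KO lists, 4 (9.09%) were absent from WT. The strongest was at Lig4, the ligase of end joining, with a −log10 q of 19.9 and 20.8 in KO. The others were at Prkdc, the DNA-dependent kinase (8.41 and 3.93 in KO), Hmgb1, which helps RAG bend DNA (6.12 and 5.70 in KO), and Poll, a gap-filling polymerase (2.94 and 3.24 in KO). Over all regions the shares were 4.15% lost and 13.1% gained.

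A second list had 17 transcription factors of thymocytes, some of them known regulators of the Rag genes. Of 90 regions held by both WT lists, 7 (7.78%, against 4.15% over all regions) were absent from KO. Of these 7, 4 were at Satb1 itself, with a −log10 q between 6.99 and 22.3 in WT. Satb1 held 13 of the 90 regions, so the 7.78% leans on the knocked-out gene. The other 3 were at Foxp1 (7.02 and 4.51 in WT), Lef1 (5.36 and 4.96 in WT) and Tcf4 (4.97 and 4.27 in WT). Of 86 regions held by both KO lists, 14 (16.3%, against 13.1% over all regions) were absent from WT. They included 1 at Foxo1, a factor known to drive Rag expression in B lineage cells (6.62 and 5.70 in KO), 2 at Ikzf1, the Ikaros gene, of which the stronger had 19.9 and 5.95 in KO, and 2 at Id3, an inhibitor of E proteins, of which the stronger had 10.8 and 11.4 in KO. The remaining 9 lay at Foxp1, Tcf4, Ets1, Runx3 and Tcf7, with a −log10 q between 2.18 and 10.7 in KO. At Bcl11b, Gata3, Runx1, Myb, Tcf3, Tcf12 and Id2 none was lost or gained.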

How the data were processed

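Per the labels' protocols, CUT&RUN was done on nuclei of sorted DP thymocytes with SMC1A or CTCF antibody and pAG-MNase. Per the submitters' processing notes, the tools were MACS2, Bowtie2, Trimmomatic 1.24, deepTools, SAMtools and R 4.12, on mm10. Their settings and any control in peak calling were not stated. The deposited files are peak lists, 1 per library, with a fold (ratio) and −log10 p and −log10 q per peak as the authors' caller gave them. These are the authors' values, used within a list only. Of 18 samples, 7 lists were analysed, and the WT replicate 1 lists were matched to their samples by the library name inside them. A second WT CTCF list, H3K27ac, IgG and input were not analysed here.

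A peak counts if it overlaps the stretch by 1 bp, and peaks overlapping by 1 bp or more were merged. Genes and promoters are RefSeq's (GRCm38.p6), which gives no exons, so exonic and intronic peaks are not told apart. No genome sequence was used, so CTCF motifs under peaks and their direction were not analysed here. Pile-up and background were back-calculated, assuming the Poisson model of MACS2, from each peak's deposited −log10 p and fold. Intervals cover counting error only, and reads without molecular identifiers are not independent. Nothing says that replicates came from separate mice, so p-values measure at most the spread between these libraries. In the main window fit, limma's prior degrees of freedom were infinite. Its standard error is thus the trend over all windows, with no weight on the Rag window's own spread.

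Windows of 1 Mb on chromosomes 1 to 19 and X with a mean of 5 or more SMC1A peaks were tested with limma 3.58.1 (mean-variance trend, R 4.3.3). Other steps used Python 3.11.15, pandas 2.3.3 and scipy 1.17.1, and code was tested on simulated data. The labels give replicate and batch the same number, by which samples could be paired, and the main fit used no replicate block. Deviations of same-numbered libraries correlated at 0.0022 over 1275 windows. The members and the gene lists were chosen with earlier results of these data known. Sites described singly are those on or within 1 kb of the starts of Rag1 and Rag2, nearest to them, in all lists of a protein, lost, gained, among the 5 highest of a list, or 20 to 100 kb 5′ of Rag2. The Traf6 promoter and the Prr5l sites were added after their values were seen. A list gene is named if a region within 20 kb was lost or gained. Alternatives were another flank, a stricter q, lists of equal length, other overlap rules, other windows and scalings, the replicate block and each replicate left out in turn.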

Additional observations from a re-analysis of the deposited data

How the results depend on the processing

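The KO minus WT difference in SMC1A peaks per 1000 was -0.0015 with flanks of 500 kb, -0.022 with −log10 q of 5 or more and 0 with lists of equal length, and it ran from -0.130 to 0.232 with 1 replicate left out. It was negative without KO replicate 1 and without WT replicate 2 (-0.0299), and p was 1.0 in each of the first 3. The log2 difference of the 1 Mb window was -0.13 with −log10 q of 5 or more, -0.0903 with lists of equal length, -0.0857 with library medians set to 0 and -0.0179 with a pseudocount of 2. With 1 replicate left out it ran from -0.43 to 0.43, negative without KO replicate 1 and without WT replicate 2 (-0.24). In the alternatives that kept all lists, adjusted p was 0.880 or more (limma). With 500 kb windows and with 1 Mb windows shifted by 500 kb, only the window from chr2:101500001 on was tested. The window below it, which holds the far 5′ site, did not pass the filter on mean peaks. The replicate block gave 0.0511 and 1.8e-05 and did not change the call of the Rag window. Over the 1275 windows, 78 passed with the block and 75 without it.

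Gained SMC1A regions numbered 0 of 2 with −log10 q of 5 or more (12.9% over all regions). They numbered 1 to 7 with 1 replicate left out, with 7 of 16 without KO replicate 2 (31.6% over all regions). Lost ones numbered 0 to 2, with 2 of 6 without KO replicate 1 (15.5% over all regions). Lost CTCF regions numbered 0 of 11 with −log10 q of 5 or more (7.96% over all regions) and 3 of 10 with lists of equal length (14.1%). They numbered 3 of 18 with an overlap of 0.5 or more of the shorter peak (21.7%) and 6 of 19 with summits within 200 bp (28.5%). With 1 KO replicate left out they numbered 1 to 13, with 13 of 19 without KO replicate 1 (53.8%). Gained ones numbered 1 of 5 with lists of equal length (10.4%) and 1 of 5 with summits within 200 bp (10.2%). With 1 KO replicate left out they numbered 1 to 12, with 12 of 27 without KO replicate 2 (47.1%). With KO CTCF replicate 2 alone, 6 of 16 SMC1A regions overlapped CTCF (49.1% over all regions). The cause of these shifts was not tested. Pile-ups of 7 to 12 reads at most SMC1A sites limit what a missing peak shows.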
